A study of Mus musculus with 6 samples.

Results

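Voltage-gated ion channels are membrane proteins that open when the voltage across a neuron's membrane changes. The 36 genes described here encode pore-forming and auxiliary subunits of such channels: 6 of sodium channels, 16 of calcium channels, 12 of potassium channels and 2 of HCN channels. They were taken as a list of gene names, and each was read from the array probes that carried its name or a RefSeq transcript of it. All 36 had at least 1 tested probe, among 17560 genes with one. The samples were prefrontal cortex of male mice of ICR, a strain kept by outbreeding, at an age of 3 to 4 months: 3 Nrf2 knockout samples and 3 wild type samples, each on 1 single-colour Agilent array. Nrf2, the product of Nfe2l2, is a transcription factor that switches on antioxidant and detoxifying genes. The labels give neither the deleted stretch of the gene, nor whether the deletion is limited to some cells, nor whether the samples came from separate animals or were pooled. The p-values therefore rest on how far these samples differed among themselves, and that variation could be technical.

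In cortical neurons, sodium channels carry the rising phase of the action potential, and potassium channels of the Kv families repolarise the membrane and set the firing pattern. Calcium channels admit the calcium that triggers transmitter release at terminals and that shapes dendritic responses. HCN channels open on hyperpolarisation and damp dendritic input, a property studied in prefrontal pyramidal cells. Auxiliary subunits do not form the pore but alter the trafficking, surface level or gating of the pores they bind. The arrays also carried probes for circular RNAs (circRNAs), closed loops in which the end of a downstream exon is joined to the start of an upstream one.

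A stretch of shared bases was seen in the circRNAs of Cacna1i, the pore of a T-type calcium channel on chromosome 15. Their 60-base probes are printed because 4 of the 5 circRNAs shared a start and these probes held the same 40 bases, given in capitals, so the 4 values are not independent. The bases before the capitals differ from probe to probe. Positions are as the array names them, read as build GRCm38, on the plus strand, and the probes are 5′ to 3′.
Cacna1i chr15:80298394-80298633: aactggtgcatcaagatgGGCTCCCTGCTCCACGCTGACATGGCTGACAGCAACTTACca
Cacna1i chr15:80298394-80321320: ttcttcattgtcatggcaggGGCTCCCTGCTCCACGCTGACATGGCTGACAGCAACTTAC
Cacna1i chr15:80298394-80336732: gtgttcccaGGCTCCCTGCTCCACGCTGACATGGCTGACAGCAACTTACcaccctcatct
Cacna1i chr15:80298394-80348531: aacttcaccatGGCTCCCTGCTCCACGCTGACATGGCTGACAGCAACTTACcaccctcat
Cacna1i chr15:80348372-80359099: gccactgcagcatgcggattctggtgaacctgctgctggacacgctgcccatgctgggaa

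Levels are log2 of the scanner's processed signal minus the array's 75th percentile, so 0 is that percentile, and changes are knockout minus wild type. The targeted gene Nfe2l2 was checked first: the coding probe measured on every array read −3.74, −3.79 and −3.46 in knockouts 1 to 3, against 0.49, 0.39 and 0.35 in wild types 1 to 3 (−4.08, SE 0.12, adjusted p = 6.13e-04 in limma), and its other 2 coding probes were not well above background on any knockout array. Knockout 1 shared slide 1 with all wild type arrays, while knockouts 2 and 3 were on slide 2, where the median local background was 19 and 18, against 23 to 24 for slide 1. Over all probes the first principal component (52.2% of the variance) set knockouts 2 and 3 apart from the other 4 arrays, and the second (22.1%) set wild type 1 apart, which had 186 flagged spots where the others had 13 to 36. Of 45 markers of 10 cell types or neighbouring regions, 44 were tested and 0 passed the threshold, with adjustment over all probes. The summed excitatory neuron markers, in multiples of the 75th percentile, were 141 to 148 in knockout and 133 to 149 in wild type arrays, and the interneuron sums were 295 to 309 and 296 to 318. The striatal markers summed to 31.8 to 32.4 in knockout and 32.6 to 34.3 in wild type arrays. Every knockout sum thus lay below every wild type sum, and the sums of no other list of the 10 separated by genotype. At an unadjusted p under 0.05, 0 of the 44 were higher and 6 were lower, each without overlap between the groups. Together that is 13.6%, against 12.4% of all genes (2.93% higher and 9.46% lower). Groups did not overlap for 2 higher and 8 lower markers, or 22.7% against 19.4% of all genes. The 6 lower at that p were the striatal markers Adora2a (−0.53, SE 0.14), Drd2 (−0.43, SE 0.14) and Rgs9 (−0.37, SE 0.13), the thalamic marker Synpo2 (−1.29, SE 0.21), the choroid plexus marker Kl (−0.66, SE 0.26) and the Purkinje cell marker Pcp2 (−0.33, SE 0.11). Adjusted p ran from 0.292 to 0.325 in limma, and with slide as a block the changes were −0.25, −0.18, −0.23, −1.24, −0.68 and −0.15. The striatal markers Drd1 and Ppp1r1b were above 0, and Gabra6, the cerebellar granule cell marker, was not tested, being too dim. What part these markers have in the channel values was not tested. In tissue, fewer cells of a type and less RNA per cell cannot be told apart.

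None of the 36 genes passed the threshold of an adjusted p of 0.05 (limma with Benjamini-Hochberg adjustment over 105924 probes), where 0.0171% of all genes did. On the brightest probe of each gene, 22 changes lay above 0 and 14 below it (38.9%), against 51.3% below 0 among all genes. The median change was 0.03, against −0.01 over all genes. At an unadjusted p under 0.05 there were 3 genes, or 8.33%, against 12.4% of all genes. The pacemaker channel gene Hcn2 and the Kv3 gene Kcnc4 were higher in the knockout at that level, 5.56% of the 36 against 2.93% of all genes, and the calcium channel subunit gene Cacna2d2 was lower, 2.78% against 9.46%. The 3 knockout arrays lay wholly above the 3 wild type arrays for 4 genes, 11.1% against 6.47% of all genes, and wholly below them for 1, 2.78% against 12.9%. In all, 5 of 36 genes did not overlap, 13.9% against 19.4% of all genes. Both pooled shares were below those of all genes, while the shares higher in the knockout, of 2 and 4 genes, were above theirs and the shares lower were below theirs. The 95% interval of the change had a median half-width of 0.27, and 30 of the 36 intervals lay within ±0.5. A missed threshold does not show that a gene was at the same level in both genotypes.

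**Figure D1:**
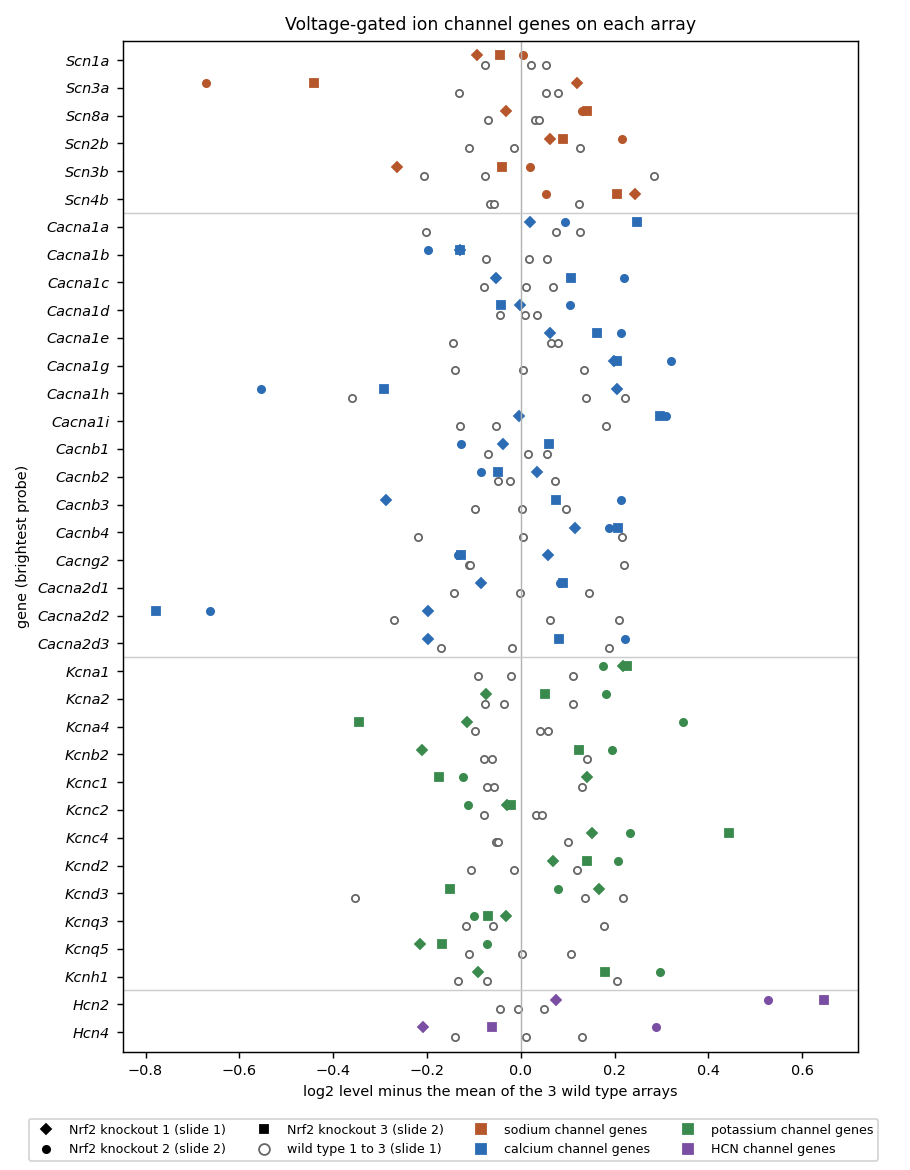
Each row is 1 of the 36 genes, by channel class. The x axis is the log2 level on each array minus the mean of the 3 wild type arrays (filled, knockout; open, wild type), and the mean of knockouts 2 and 3 stands farthest from the wild type arrays for Cacna2d2, Scn3a and Hcn2, while knockout 1 lies nearer to them.

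The sodium channel genes were split, with 3 changes above 0 and 3 below it, a median of 0.02 and 0 past the threshold. Among the 3 pore genes, Scn1a, which serves much of the sodium current of inhibitory interneurons, changed by −0.04 (SE 0.09), and Scn8a, the main pore of the mature axon initial segment, by 0.08 (SE 0.09). Scn3a, a pore gene best known from embryonic and early postnatal brain, had the widest change of the class. It read 0.67, −0.12 and 0.11 in knockouts 1 to 3, against 0.63, 0.42 and 0.60 in wild types 1 to 3. Knockouts 2 and 3 were below all wild type arrays and knockout 1 was above them, for a change of −0.33 (SE 0.21, adjusted p = 0.436 in limma). Its other tested probes gave −1.11 (SE 0.40, adjusted p = 0.316) and −0.20 (SE 0.37). The first of these read −1.51, −2.93 and −3.09 in knockouts 1 to 3, against −1.43, −1.48 and −1.28 in wild types 1 to 3. Knockout 1 there stood just under the wild type arrays and the other knockouts far under them, and with slide as a block the change was −0.12.

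The sodium channel beta subunits modulate gating and also act as cell adhesion molecules. Scn4b, whose subunit binds the pore through a disulphide bond, read 3.66, 3.47 and 3.62 in knockouts 1 to 3, against 3.35, 3.36 and 3.54 in wild types 1 to 3. The groups overlapped only between knockout 2 and wild type 3, and the change was 0.17 (SE 0.10, adjusted p = 0.430 in limma). Scn2b, which also binds its pore covalently and was named as the brightest probe of the class, read 6.91, 7.07 and 6.94 in knockouts 1 to 3 and 6.98, 6.74 and 6.84 in wild types 1 to 3. Wild type 1 lay inside the knockout range, and the change was 0.12 (SE 0.10). For Scn3b, a beta subunit that binds without a disulphide bond, all 4 tested probes were lower, between −0.11 and −0.07, and the brightest changed by −0.09 (SE 0.15).

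The calcium channel genes gave 10 changes above 0 and 6 below it, a median of 0.03 and 0 past the threshold. Of the 8 pore genes 6 were above 0, and their median was 0.11. Cacna1g, a T-type pore that opens near the resting potential and supports burst firing, was the only calcium channel gene whose knockout arrays all lay above the wild type arrays on the brightest probe. It read 3.40, 3.52 and 3.41 in knockouts 1 to 3, against 3.34, 3.06 and 3.21 in wild types 1 to 3. The change was 0.24 (SE 0.10, adjusted p = 0.338 in limma), the other probes gave 0.24 and 0.10, and with slide as a block it was 0.20. Cacna1b, the N-type pore of presynaptic terminals, was the only gene of all 36 whose knockout arrays all lay below the wild type arrays on the brightest probe. It read 4.74, 4.67 and 4.74 in knockouts 1 to 3, against 4.89, 4.80 and 4.93 in wild types 1 to 3, a change of −0.15 (SE 0.09, adjusted p = 0.399). Its second probe gave 0.06 (SE 0.11), with overlapping groups.

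Cacna1i, a T-type pore found mainly in the central nervous system, read 4.27, 4.59 and 4.57 in knockouts 1 to 3, against 4.46, 4.15 and 4.23 in wild types 1 to 3. Knockouts 2 and 3 were above all wild type arrays, knockout 1 lay among them, and the change was 0.20 (SE 0.13, adjusted p = 0.456 in limma). With slide as a block it was −0.0033. Cacna1e, the R-type pore, read 0.79, 0.95 and 0.89 in knockouts 1 to 3 and 0.59, 0.80 and 0.81 in wild types 1 to 3, so that knockout 1 fell among the wild type arrays. Its change was 0.15 (SE 0.10), and 1 of its 3 probes gave −0.14. The third T-type gene, Cacna1h, changed by −0.21 (SE 0.24), with knockouts 1 and 3 inside the wild type range, and its other 3 probes were all above 0. The P/Q-type gene Cacna1a changed by 0.12 (SE 0.12), and the L-type genes Cacna1c and Cacna1d by 0.09 (SE 0.10) and 0.02 (SE 0.09).

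Among the auxiliary calcium channel genes, the largest change of all 36 genes was that of Cacna2d2. It encodes an extracellular alpha2delta subunit that raises the surface level of calcium channels and binds gabapentin. It read 1.95, 1.49 and 1.37 in knockouts 1 to 3, against 1.88, 2.21 and 2.36 in wild types 1 to 3. Knockouts 2 and 3 were below every wild type array, while knockout 1 lay above wild type 1, so the groups overlapped. The change was −0.55 (SE 0.19, unadjusted p = 0.0283, adjusted p = 0.314 in limma), with a 95% interval of −1.01 to −0.08. The other 4 probes of Cacna2d2 did not show it: they gave −0.04, 0.13, 0.22 and 0.24, and the mean of all 5 changed by 0.0025. On mm9 the brightest probe lies at chr9:107430894-107430953, and the probe that gave −0.04, at chr9:107431113-107431172, is 159 bases further along. The related genes Cacna2d1 and Cacna2d3 changed by 0.03 (SE 0.11) and 0.04 (SE 0.15).

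The beta subunits, which sit inside the cell and carry the pore to the membrane, gave 2 changes above 0 and 2 below it. Cacnb3, the brightest probe of the calcium class, read 5.57, 6.07 and 5.93 in knockouts 1 to 3 and 5.95, 5.76 and 5.86 in wild types 1 to 3. Knockout 1 was the lowest of the 6 arrays and knockout 2 the highest, and the means were equal to 2 decimals, at 5.85 ± 0.26 in the knockout and 5.85 ± 0.10 in the wild type (SD, n = 3 each). Cacnb4 changed by 0.17 (SE 0.13), with 4 of 5 probes above 0, and Cacnb1 and Cacnb2 changed by −0.04 (SE 0.09) and −0.03 (SE 0.09). Cacng2 encodes stargazin, better known for carrying AMPA receptors to synapses. It changed by −0.07 (SE 0.13).

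Of the potassium channel genes 7 were above 0 and 5 below it, with a median of 0.03 and 0 past the threshold. Kcnc4 encodes a fast Kv3 pore of the kind that lets neurons fire at high rates, on chromosome 3 from 107438298 to 107460287 (GRCm38.p6). It read 2.89, 2.97 and 3.18 in knockouts 1 to 3, against 2.84, 2.69 and 2.69 in wild types 1 to 3. The groups did not overlap, although knockout 1 exceeded wild type 1 by little. The change was 0.28 (SE 0.11, unadjusted p = 0.0440, adjusted p = 0.327 in limma), a 1.21-fold difference. The second probe, which shares 37 bases with the first, gave 0.21 (SE 0.11), and with slide as a block the brightest gave 0.15. The other Kv3 genes, Kcnc1 and Kcnc2, changed by −0.05 (SE 0.12) and −0.05 (SE 0.09).

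Kcna1, a Kv1 pore of axons and terminals and the brightest probe of its class, read 5.92, 5.87 and 5.93 in knockouts 1 to 3, against 5.81, 5.61 and 5.68 in wild types 1 to 3. All 3 knockout arrays were above the wild type arrays, by 0.21 on average (SE 0.09, adjusted p = 0.343 in limma), and with slide as a block the change was 0.22. Its second probe gave −0.01 (SE 0.10). Kcnd2, a Kv4 pore that carries the dendritic A-type current, read 3.85, 3.99 and 3.92 in knockouts 1 to 3 and 3.90, 3.67 and 3.77 in wild types 1 to 3. Knockout 1 lay among the wild type arrays, the change was 0.14 (SE 0.10), and all 3 probes were above 0.

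Kcnq5, a Kv7 subunit of the slow M-current that limits repetitive firing, read 3.81, 3.95 and 3.86 in knockouts 1 to 3, against 4.03, 3.91 and 4.13 in wild types 1 to 3. The groups overlapped only through knockout 2 and wild type 2, the change was −0.15 (SE 0.10, adjusted p = 0.446 in limma), and its other probes gave 0.08 and 0.22. Its partner Kcnq3 changed by −0.07 (SE 0.11). Among the remaining Kv genes, Kcna2 changed by 0.05 (SE 0.11), Kcna4 by −0.04 (SE 0.18), Kcnb2 by 0.04 (SE 0.14), Kcnd3 by 0.03 (SE 0.18) and Kcnh1, an ether-a-go-go pore, by 0.13 (SE 0.14).

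Both HCN genes were measured. Hcn2, the pore of a pacemaker channel that cyclic nucleotides modulate, lies on chromosome 10 from 79716634 to 79736108 (GRCm38.p6). It read 1.29, 1.74 and 1.86 in knockouts 1 to 3, against 1.26, 1.21 and 1.17 in wild types 1 to 3. All knockout arrays were above the wild type arrays, but knockout 1 by only a small margin. The change was 0.42 (SE 0.16, unadjusted p = 0.0367, adjusted p = 0.320 in limma), a 1.33-fold difference, and the second probe gave 0.28 (SE 0.12), again without overlap. With slide as a block, which rests on knockout 1 against the wild type arrays of its slide, the change was 0.07 (SE 0.11, adjusted p = 0.963). Hcn4, the channel best known from the cardiac pacemaker, changed by 0.01 (SE 0.15).

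Most genes had more than 1 probe, which gave a second reading from the same arrays. Of 102 probes 100 were tested, and the 1 probe each of Cacng2 and Hcn4 that was not was well above background on no array. Among the 100 tested, 70 changes were above 0 and 30 below it, and 0 passed the threshold (lowest adjusted p = 0.307 in limma), against 0.00944% of all probes. In all, 10 probes of 10 genes had an unadjusted p under 0.05, which is 10% against 11.1% of all coding probes. Of these 8 were higher (8% against 4.11%) and 2 lower (2% against 6.95%). The groups did not overlap for 24 probes, or 24% against 19.1% of coding probes. Of these 21 were higher (21% against 9.44%) and 3 lower (3% against 9.69%), and probes of 1 gene are not independent of each other. Of the 35 genes with more than 1 tested probe, 15 had all probes above 0, 4 had all below 0 and 16 had probes on both sides, where 49.7% of all such genes had both. Hcn2, Kcnc4 and Cacna1g thus had changes of one sign on every probe, while Cacna2d2, Cacna1b, Kcna1 and Kcnq5 did not. The lowest p of any probe belonged to a dimmer probe of Kcnc1, named after its value was seen. That probe read 2.86, 2.90 and 3.09 in knockouts 1 to 3, against 2.69, 2.64 and 2.53 in wild types 1 to 3. The arrays separated on it by genotype (0.33, SE 0.10, adjusted p = 0.307), and the brightest Kcnc1 probe gave −0.05.

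**Figure D2:**
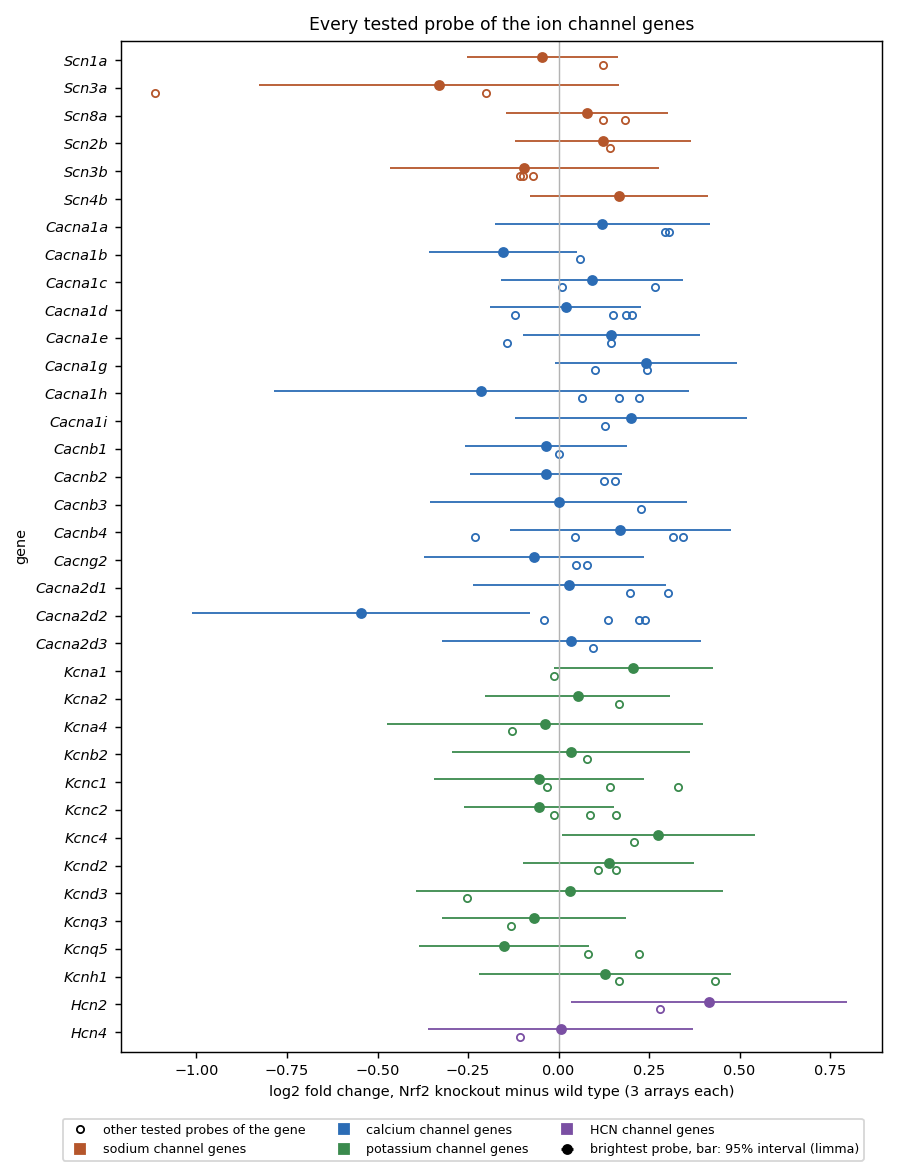
Log2 fold change, knockout minus wild type, of every tested probe by gene. Filled points are the brightest probes with their 95% intervals and open points the other probes. For 16 genes, Cacna2d2 among them, the probes lie on both sides of 0.

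The knockout arrays of the 2 slides differed in how they read these genes. Relative to the wild type mean, the median of the 36 genes was −0.02 on knockout 1, 0.12 on knockout 2 and 0.07 on knockout 3, and over all genes the medians were −0.06, 0.04 and 0.01. Knockout 1 was inside the wild type range for 20 genes, knockout 2 for 9 and knockout 3 for 16. Knockouts 2 and 3 were outside that range on the same side for 15 genes, and for 8 of these knockout 1 was inside it. These 8 of 36 were Scn8a, Cacna1c, Cacna1e, Cacna1i, Cacnb2, Cacng2, Cacna2d2 and Kcnd2, and 18.5% of all genes had that pattern. With slide as a block 16 genes were above 0 and 20 below it, with a median of −0.02, against −0.06 over all genes, and 0 passed the threshold (0.00569% of all genes).

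Without knockout 1, all remaining knockout arrays were on slide 2 and all wild type arrays on slide 1, so genotype and slide cannot be told apart in that fit. There 3 of the 36 genes passed the threshold, against 8.95% of all genes. Hcn2 was higher by 0.59 (adjusted p = 0.0150 in limma, range over the alternatives 0.0150 to 0.968). Cacna2d2 changed by −0.72 (adjusted p = 0.0445, range 0.0445 to 0.992). Scn3a changed by −0.56 (adjusted p = 0.0397, range 0.0397 to 0.965). On knockout 1 alone, Scn3a and Hcn2 stood 0.12 and 0.07 above the wild type mean and Cacna2d2 stood at −0.20.

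**Figure D3:**
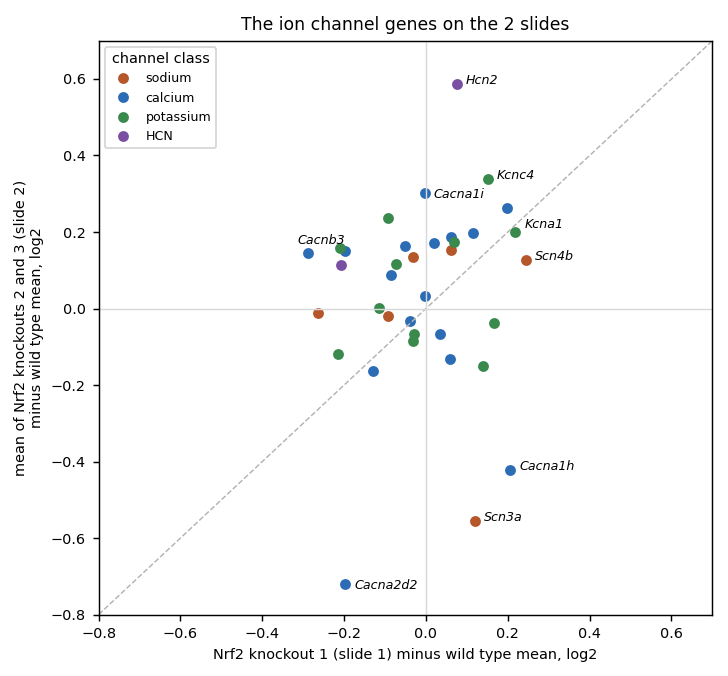
Each point is 1 gene. The x axis gives knockout 1 (slide 1) and the y axis the mean of knockouts 2 and 3 (slide 2), each minus the wild type mean on the log2 scale, with a dashed line where both are equal. Hcn2, Cacna2d2 and Scn3a lie far from 0 on the y axis and within 0.2 of it on the x axis.

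The circRNA probes read another product of the same genes. By position, 203 circRNAs lay wholly inside 1 of 25 of these genes and 11 genes had none, and 3 of the 203 were on the strand opposite their host, in Cacna1b, Cacna1e and Cacng2. Cacna2d3 had 42, Cacna1e 27, Kcnq5 20 and Cacna1b 16. Of 195 tested, 0 passed the threshold (lowest adjusted p = 0.307 in limma), against 0.00289% of all 34552 tested circRNAs. Changes were above 0 for 145 and below 0 for 50, which is 25.6% against 35.8% of all circRNAs, and their median was 0.13, against 0.08. At an unadjusted p under 0.05 there were 20, or 10.3% against 14.8% of all circRNAs. The groups did not overlap for 44, or 22.6% against 23.3%. Of these, 36 were higher (18.5% against 16.5% of all circRNAs) and 8 lower (4.10% against 6.82%).

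**Figure D4:**
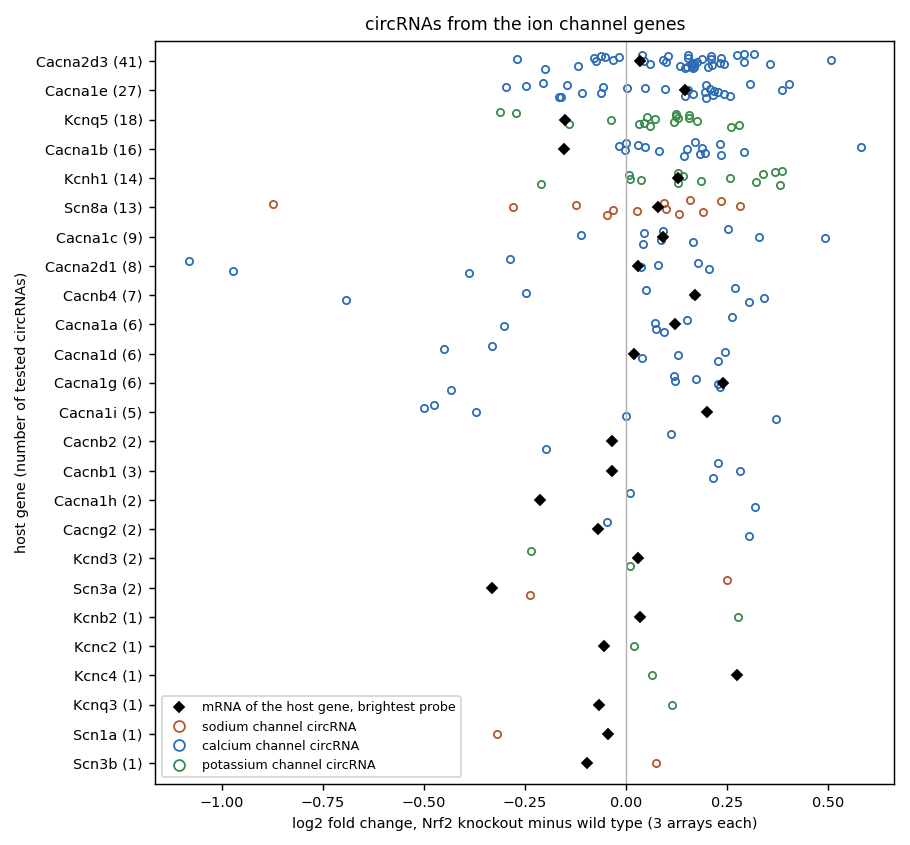
Open points are the 195 tested circRNAs by host gene and diamonds the host's mRNA on its brightest probe, both as log2 fold change of knockout minus wild type. Most circRNAs lie above 0, while 3 of Cacna1i and a few of Cacna2d1, Scn8a and Cacnb4 lie well below it.

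The 6 circRNAs of lowest unadjusted p came from 4 genes, each with adjusted p of 0.307 or 0.308 in limma and no overlap between the genotypes. A circRNA of the potassium channel gene Kcnh1 (chr1:192221333-192242037) read −0.19, −0.04 and −0.10 in knockouts 1 to 3, against −0.34, −0.48 and −0.67 in wild types 1 to 3. It was higher in the knockout by 0.39 (SE 0.11), and another of Kcnh1 (chr1:192505264-192506756) by 0.38 (SE 0.12). A circRNA of the L-type gene Cacna1d (chr14:30066034-30082996) read 2.16, 2.09 and 1.91 in knockouts 1 to 3, against 2.44, 2.31 and 2.39 in wild types 1 to 3. It was lower in all knockout arrays, at −0.33 (SE 0.10), where the Cacna1d mRNA gave 0.02. A circRNA of the N-type gene Cacna1b (chr2:24718030-24758421) gave 0.29 (SE 0.09), where its mRNA gave −0.15.

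The other 2 were the Cacna1i circRNAs chr15:80298394-80336732 and chr15:80298394-80298633, whose probes are printed above. The first read 2.00, 1.53 and 1.54 in knockouts 1 to 3, against 2.11, 2.17 and 2.20 in wild types 1 to 3, a change of −0.47 (SE 0.15). The second read 1.75, 1.26 and 1.20 in knockouts 1 to 3, against 1.93, 1.90 and 1.89 in wild types 1 to 3, a change of −0.50 (SE 0.16). On both, every knockout array was below every wild type array, with knockout 1 much the nearest to them. The circRNA ending at 80348531 gave −0.37 (SE 0.14), also without overlap. The fourth of the shared start, ending at 80321320, read −1.34, −0.88 and −0.85 in knockouts 1 to 3, against −0.98, −1.08 and −1.01 in wild types 1 to 3. There knockout 1 was the lowest array and the other knockouts the highest, and the change was −0.00027 (SE 0.15), although its probe holds the same 40 bases. The circRNA with another start, chr15:80348372-80359099, was higher by 0.37 (SE 0.13), again without overlap, and the mRNA gave 0.20. With slide as a block the 3 lower ones gave −0.16, −0.15 and −0.08.

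**Figure D5:**
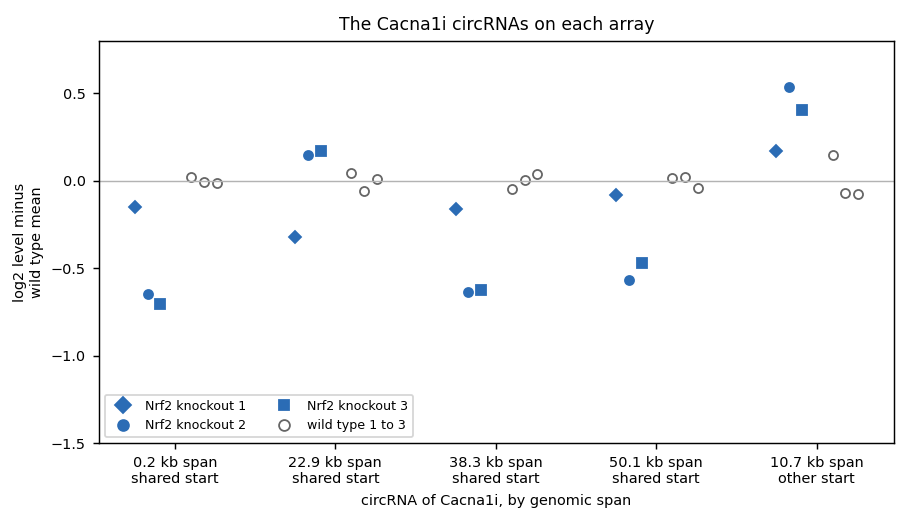
Log2 level of the 5 Cacna1i circRNAs on each array minus the wild type mean, by genomic span, with knockout arrays filled and wild type arrays open. In 3 of the 4 with a shared start, knockouts 2 and 3 lie far below the wild type arrays and knockout 1 just below them.

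Without knockout 1, 23 of the 195 circRNAs passed the threshold, against 14.5% of all circRNAs, and the same limit on slide and genotype applies. Among the tested circRNAs the lowest change belonged to 1 of Cacna2d1 (chr5:16162993-16267475), named after its value was seen. It read −1.36, −2.92 and −3.13 in knockouts 1 to 3, against −1.16, −1.53 and −1.47 in wild types 1 to 3. Knockout 1 lay among the wild type arrays, and the change of −1.08 (SE 0.45, adjusted p = 0.333 in limma) was 0.03 with slide as a block.

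A list of 38 other genes that bind, carry or extend these channels was read in the same way. It holds further channel subunits, intracellular fibroblast growth factor homologues, and anchoring proteins of the axon initial segment and node. All 38 were tested and 0 passed the threshold (lowest adjusted p = 0.310 in limma). Of their changes 25 were above 0 and 13 below it (34.2% against 51.3% of all genes). Their median was 0.05, against −0.01 over all genes. At an unadjusted p under 0.05 there were 3, or 7.89% against the 12.4% of all genes. All 3 were higher in the knockout (7.89% against 2.93%) and 0 lower (0% against 9.46%). The groups did not overlap for 10 of the 38, or 26.3% against 19.4% of all genes. Of these, 6 were higher (15.8% against 6.47%) and 4 lower (10.5% against 12.9%).

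Kcnn2, a calcium-activated potassium channel that carries part of the after-hyperpolarisation, had the lowest p of that list. It read 3.92, 4.11 and 4.08 in knockouts 1 to 3, against 3.88, 3.50 and 3.53 in wild types 1 to 3. All knockout arrays were above the wild type arrays, knockout 1 by little, and the change was 0.40 (SE 0.13, adjusted p = 0.310 in limma), with 0.47 and 0.48 on its other probes and 0.28 with slide as a block. The Kv1 gene Kcna3 gave 0.24 (SE 0.09), the ether-a-go-go family gene Kcnh3 0.30 (SE 0.12) and the Kv1 gene Kcna6 0.23 (SE 0.10), each without overlap. Sptbn4, the spectrin of the axon initial segment, gave −0.25 (SE 0.12), also without overlap, though its other probe gave 0.13. Kcnn1, a relative of Kcnn2, gave 0.23 (SE 0.11) with overlapping groups.

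Nrf2 binds DNA with a small MAF protein at the antioxidant response element, searched here as TGACNNNGC on both strands, from 250 bases before to 50 after each start site. RefSeq promoters (GRCm38.p6) were held for 28 of the 36 genes. Of their 41 promoters 5 carried the letters, or 12.2%, against 12.4% of all 32851 promoters, so the share was near that of any promoter. Counted by gene it was 5 of the 28, or 17.9%, against 14.0% of all 27025 genes with a promoter. The genes were Scn8a, Cacna1c, Cacnb4, Kcna4 and Kcnc4. The matches that lay before the start site are shown with the motif in capitals and 10 bases on either side, 5′ to 3′ in the direction of the gene, to let them be set beside the values above. In Cacna1c the capitals are the reverse complement.
Scn8a chr15:100870468-100870496 (plus strand): ggtcgcacggTGACCGGGCgtgcccggga
Cacna1c chr6:119196454-119196482 (minus strand): gaccacagcaGCAAAGTCAgaatgatgat
Kcna4 chr2:107290499-107290527 (plus strand): cgcagcgtcgTGACTGTGCccgcccagcc
Kcnc4 chr3:107458944-107458972 (minus strand): ctccccgttcTGACGCTGCctccttggga

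Of these 5 genes 1, Kcnc4 (0.28), had groups that did not overlap on its brightest probe, where 19.4% of all genes did not overlap. The others gave 0.08 (Scn8a), 0.09 (Cacna1c), 0.17 (Cacnb4) and −0.04 (Kcna4). A match is a description of letters and not a binding site. By position, 6 of the 36 genes lie on chromosome 2 with Nfe2l2 (75675513 to 75704663, GRCm38.p6), the nearest being Scn1a at 9.23 Mb. Of these 5 were below 0 and 1 above it, where 51.3% of all genes were below 0. Their changes ran from −0.33 for Scn3a to 0.17 for Cacnb4. This grouping was looked at after the values were seen, and a part played by position was not tested.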

How the data were processed

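Prefrontal cortex RNA of 3 Nrf2 knockout and 3 wild type samples was labelled with Cy3 and hybridised to 1 array each. Per the file headers, the deposited intensity values came from the scanner software Agilent Feature Extraction, version 12.0.3.1, which had subtracted background and detrended them. Version 10.7 and limma stand in the submitters' processing notes. The authors' processed table followed log2 of these signals when both were set side by side, and was used as an alternative only.

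From the processed signal, log2 minus the array's 75th percentile was taken, control spots (4974) were left out and outlier-flagged spots set missing. Testing needed a probe to be well above background, and not flagged, on all 3 arrays of a genotype. Each gene was read by its tested probe of the highest mean. The genotypes were set against each other by lmFit and eBayes of limma 3.58.1 (R 4.3.3), with no covariate, two-sided, with Benjamini-Hochberg adjustment over all tested probes. Errors are limma's SE or the SD as named. Simulated data with 200 probes of 105711 changed by 3 on the log2 scale gave 187 recovered and 6 false calls. Slides come from the file names and headers. The number of arrays limits the precision.

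The 14 genes given in full had the 12 lowest p-values, the 3 largest changes or the brightest probe of a class; 6 circRNAs and 6 related genes had the lowest p. Members and lists were chosen with earlier results of these data known. Alternatives were another background correction (normexp, offset 50), quantile normalization, the authors' table, 2 filters on dim probes, slide as a block or slide 1 only, a replicate block, leaving out each array, and the mean of a gene's probes. Same-numbered samples did not deviate together (r of −0.013, −0.050 and 0.038), so they were not treated as pairs.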

Additional observations from a re-analysis of the deposited data

How the results depend on the processing

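No gene of the 36 and none of the 38 related genes passed the threshold under any alternative in limma, except that leaving out knockout 1 gave 3 of the 36 (Scn3a, Cacna2d2 and Hcn2); leaving out any of the other arrays gave 0, so the range was 0 to 3. The circRNAs past the threshold ranged from 0 to 23 when 1 array was left out, the 23 again without knockout 1. Over all probes the count was 10, and 16 with normexp, 4 with probes well above background on all 6 arrays, 4 on slide 1 only and 2 with the replicate block, which left 0 of the 36 past the threshold. Leaving out 1 array gave 5 to 13558 probes, the highest without knockout 1 and 50 without wild type 1.

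The median change of the 36 ranged from −0.0159 to 0.115 when 1 array was left out, that of the sodium genes from −0.0195 to 0.073 and that of the calcium genes from −0.0347 to 0.116. The HCN median, 0.21 with all arrays, was −0.0669 with slide as a block. The fit to slide 1 only gives the same value by construction, since both set knockout 1 alone against the 3 wild type arrays, and the lone knockout array is assumed there to vary like the wild type arrays. With the mean of all tested probes of a gene, 8 of the 36 were below 0 and the sodium median was 0.0834. Directions turned, without any call, with slide as a block, and so on slide 1 only, for Scn3a (0.12), Cacna1i (−0.0033) and Cacnb3 (−0.29). Cacnb3 also gave −0.0165 with quantile normalization and −0.0158 with the authors' table, and −0.11 to 0.14 when 1 array was left out. With the mean of a gene's probes, Cacna2d2 gave 0.0025 and Kcnq5 0.0509. The cause was not tested, beyond the fewer arrays or probes that some alternatives hold. The other genes given in full kept their direction under every alternative run.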
